A study of Mus musculus with 4 samples.

Results

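The inhibitor of differentiation (Id) genes and the SMAD genes of the BMP pathway were followed in mouse primary osteoblasts. The group holds 10 genes, Id1, Id2, Id3, Id4, Smad1, Smad4, Smad5, Smad6, Smad7 and Smad9. They were taken by gene name from the non-control probes of an Agilent single-colour array, which gave 14 of its 55681 probes. Of these 14 probes, 13 were well above background on all 4 arrays and 1, a Smad1 probe, was below background on all 4. Smad1 had 3 probes, Smad4 and Smad5 had a pair each, and the other 7 genes had 1 probe each.

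The cells were cultured in medium with 10% serum and treated for 72 h in 4 ways, with 1 array for each. The first array held untreated cells, the second cells with LOXL2 at 4 µg/ml, the third cells with BMP2 at 200 ng/ml and the fourth cells with both proteins. BMP2, a secreted ligand of the TGF-beta superfamily, drives bone and cartilage formation. LOXL2 belongs to the lysyl oxidases, enzymes that cross-link matrix proteins. The labels enter the cells as pre-osteoblasts on the arrays without BMP2 and as osteoblasts on those with it. No genotype, strain or age is given in the sources used here, and nothing in them tells if the 4 cultures were separate cell preparations.

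BMP ligands bind paired serine/threonine kinase receptors, which phosphorylate the receptor-regulated SMADs encoded by Smad1, Smad5 and Smad9. These join the common partner encoded by Smad4 and enter the nucleus, where they bind DNA beside other factors. The inhibitory SMADs encoded by Smad6 and Smad7 block receptors and SMAD complexes, and both genes are themselves transcribed in response to the pathway. Id1, Id2 and Id3 are classic early targets. Their products carry a helix-loop-helix domain but no basic region, so they bind E proteins and keep these and their tissue-specific partners off DNA.

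Promoter windows from RefSeq (GRCm38.p6) were set beside the data because several of these genes are textbook direct SMAD targets. The table matched 7 of the 10 genes and gave 9 windows, 3 of them for Smad5. Id1, Smad4 and Smad7 were not matched. Each window ran from 250 bases before a start site to 50 after it. They were searched on both strands for GGCGCC, the core of a GC-rich SMAD site, and for the composite GGCGCCNNNNNGTCT, in which a SMAD site follows at a fixed distance. The composite contains the shorter motif. GGCGCC lay in the windows of Id2, Id4 and Smad9 and in a pair of the Smad5 windows, and not in those of Id3, Smad1 or Smad6. The windows of this Smad5 pair overlap, and their match is the same site. Of 32841 windows in the table, 11.9% held GGCGCC. The composite was in none of the 9 windows and in 24 of all windows (0.0731%). The GC content was 73.7% for Smad9, 73.3% for Id4 and 66.3% for Smad6, against a median of 52.7% over all windows.

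Upstream sequence is shown for Smad6, which rose with BMP2, and for Id4, which fell, and the matched site alone for Smad9 and Id2. Capitals mark GGCGCC, and each sequence is written 5′ to 3′ on the strand of its gene. A match is a description of these letters only. Smad6 is on the minus strand (chr9:64022086-64022309), Id4 on the plus strand (chr13:48260866-48261115), the Smad9 site on the plus strand (chr3:54755519-54755548) and the Id2 site on the minus strand (chr12:25096306-25096335).
Smad6 upstream: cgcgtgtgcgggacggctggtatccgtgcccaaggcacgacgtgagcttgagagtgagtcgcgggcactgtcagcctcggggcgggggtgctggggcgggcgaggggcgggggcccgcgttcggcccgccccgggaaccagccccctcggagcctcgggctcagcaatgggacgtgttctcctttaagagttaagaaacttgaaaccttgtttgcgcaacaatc
Id4 upstream: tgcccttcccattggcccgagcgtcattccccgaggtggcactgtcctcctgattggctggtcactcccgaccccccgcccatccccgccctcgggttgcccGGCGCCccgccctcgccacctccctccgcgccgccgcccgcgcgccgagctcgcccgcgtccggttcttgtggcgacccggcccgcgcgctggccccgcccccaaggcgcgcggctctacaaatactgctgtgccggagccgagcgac
Smad9 site: gcacggccgcctGGCGCCcttccagcgcgg
Id2 site: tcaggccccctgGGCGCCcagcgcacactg

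The 4 arrays were alike in signal and shared 1 slide and 1 scan time. From 60.4% to 62.2% of non-control spots were well above background, and the 75th percentile of the intensity ran from 710.5 to 742.9. Osteoblast markers were present on every array, with all 9 tested well above background on all 4. With 1 position per treatment, the effect of an array's place on the slide and that of its treatment cannot be told apart. Values below are intensities scaled to a common 75th percentile over the 4 arrays, given in the order untreated, LOXL2, BMP2 and both proteins. Effects are log2 changes ± SE from an additive limma fit of both proteins over 33976 probes, and a gene was called at an adjusted p under 0.05. Each effect rests on 2 arrays against 2, with the interaction of the proteins as the only residual. The fit thus had 1 residual degree of freedom per probe, to which the empirical Bayes step added 1.69.

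With BMP2, the receptor-regulated gene Smad9 and both inhibitory SMAD genes rose and Id4 fell. Of the 10 genes, each read on its brightest probe, 3 rose, 1 fell and 6 did not pass. Over all 24041 genes read the same way, 6.14% rose and 6.58% fell, and over all probes 5.76% rose and 6.19% fell. In bulk RNA of this kind, fewer cells of a type and less RNA per cell cannot be told apart. The median BMP2 effect was 0.26 over the 10 genes and 0.017 over all genes. For 9 of the 10, both arrays with BMP2 lay above both without it (38.1% of all genes), and for Id4 both lay below (32.8%). These counts take differences of any size on the brightest probes. On the second probes of Smad1, Smad4 and Smad5, the arrays with and without BMP2 overlapped. For 6 of the 10, both BMP2 differences, without and under LOXL2, went the same way past 2 standard deviations of spot error, the spread between repeat spots of a probe on an array (41.2% of all genes). At an unadjusted p under 0.05, 6 of the 10 passed, the 4 called genes with Id1 and Id3. So did 13260 of all 33976 probes.

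**Figure D1:**
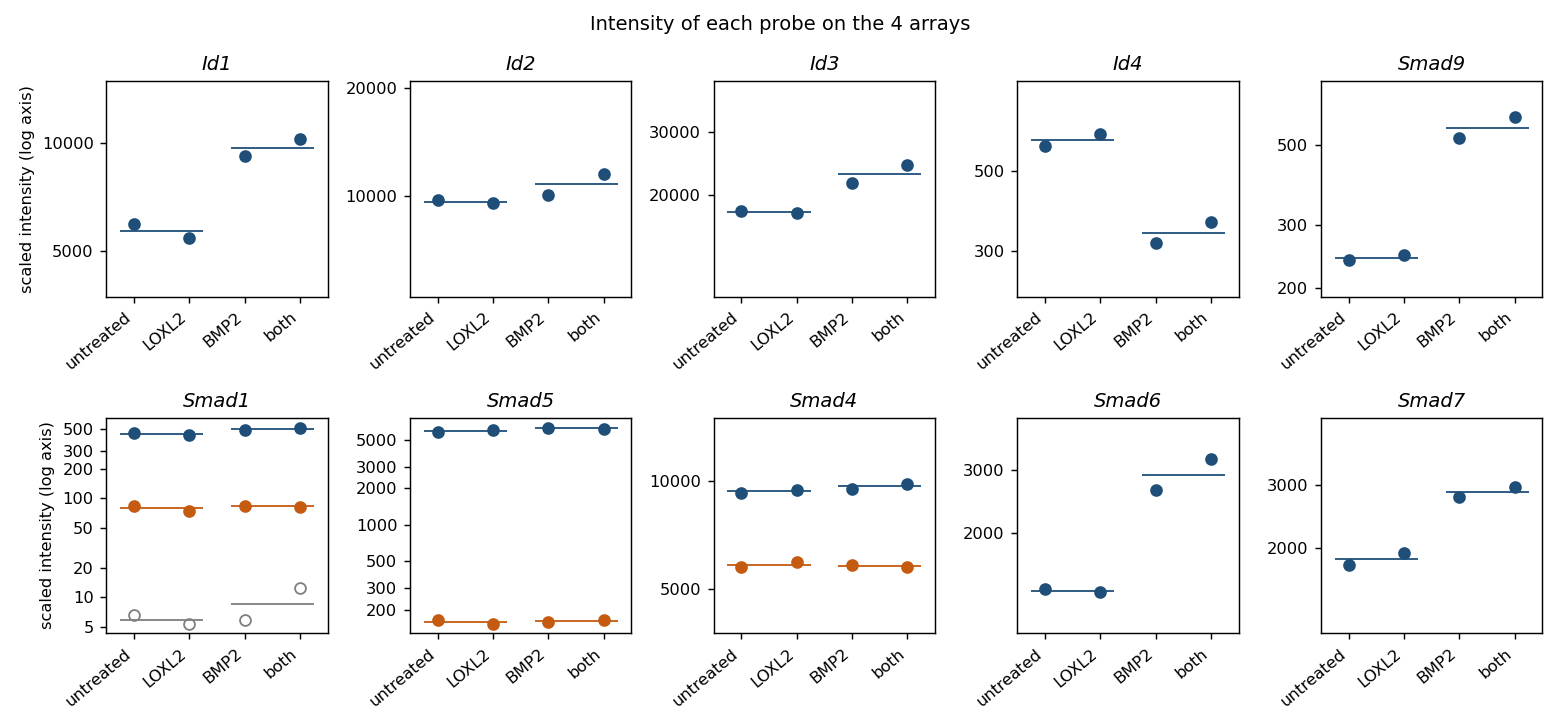
Scaled intensity (log axis) of each probe on the 4 arrays, 1 panel per gene; each point is 1 array, horizontal lines are geometric means of the pair without and the pair with BMP2, and colours separate the probes of a gene (open grey circles mark the Smad1 probe below background). Smad9, Smad6 and Smad7, higher on both arrays with BMP2, and Id4, lower on both, passed the test. The brightest probes of the other 6 genes were also higher on both, but no probe of these genes passed. Vertical spans differ between panels, and levels of different probes are not comparable.

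Among the receptor-regulated SMAD genes, Smad9, whose product is also called SMAD8, gave intensities of 239, 247, 525 and 599. Both arrays with BMP2 lay above both without it, as they did on the brightest probes of 9 of the 10 genes and of 38.1% of all genes. The fitted change was 1.21 ± 0.071 (adjusted p = 0.0319), or 2.31-fold, with a 95% interval of 0.97 to 1.45. This exceeded in size the BMP2 effect on 95.8% of probes. The change was 1.14 without LOXL2 and 1.28 under it, values from single pairs of arrays that have no test. The probe lies on chromosome 3 from 54605068 to 54605127 (mm9, as in the scanner file). Its place in the transcript was not analysed here, for want of an mm9 annotation.

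Smad1 and Smad5, the other receptor-regulated genes, were not called on any probe. The brightest Smad1 probe gave 456, 441, 490 and 521, which is highest on the array with both proteins. Its change was 0.17 ± 0.070 (adjusted p = 0.201), with an interval of -0.067 to 0.41. The second Smad1 probe gave 84.6, 74.5, 85.0 and 81.8, with a change of 0.070 ± 0.069. The third, designed on a cDNA clone, was not well above background on any array (6.58, 5.44, 5.98 and 12.4) and was not tested. The brightest Smad5 probe gave 5785, 6040, 6285 and 6110, with a change of 0.068 ± 0.065 and an interval of -0.15 to 0.29 (adjusted p = 0.501). The second gave 165, 153, 157 and 163, where the groups overlapped, with a change of 0.0086 ± 0.075. The upper ends of the intervals of Smad1 and Smad5 lie below the lower end of that of Smad9, but the difference between genes was not tested.

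Smad4, the common partner of all receptor-regulated SMADs, was not called on either of its probes. The brightest gave 9289, 9454, 9489 and 9830, a change of 0.044 ± 0.057 with an interval of -0.15 to 0.24 (adjusted p = 0.621). The other gave 5758, 5939, 5844 and 5742, a change of -0.014 ± 0.061 with an interval of -0.22 to 0.19. The direction for Smad4 is therefore unset: it was -0.00034 on the brightest probe after quantile normalization. An effect as large as that on Smad7 lies outside both intervals.

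Both inhibitory SMAD genes rose. Smad6, whose product competes for BMP receptors and receptor-regulated SMADs, gave 1390, 1365, 2624 and 3209. Its arrays with and without BMP2 did not overlap, and the array with both proteins was the highest. The change was 1.08 ± 0.11 (adjusted p = 0.0430), or 2.11-fold, and 94.8% of probes had a smaller one. It was 0.92 without LOXL2 and 1.23 under it. Smad7, which also recruits ubiquitin ligases to receptors, gave 1798, 1933, 2766 and 2967. Its change was 0.62 ± 0.057 (adjusted p = 0.0395), or 1.54-fold, and the pair values were nearly equal at 0.62 without LOXL2 and 0.62 under it. The probe of Smad6 lies on chromosome 9 from 63800980 to 63801039 (mm9).

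Of the 4 Id genes, 0 rose and 1, Id4, fell by the test. Id1 gave 5954, 5435, 9243 and 10252, with both BMP2 arrays above both others. Its change of 0.78 ± 0.10 (1.71-fold, interval 0.43 to 1.12) missed the threshold at an adjusted p = 0.0530. With 1 probe per gene in place of all probes, the same change had an adjusted p = 0.0416, and over 10 alternatives it passed in 6, with adjusted p from 0.000165 to 0.154. The difference was 0.63 without LOXL2 and 0.92 under it. Its probe lies on chromosome 2 from 152563083 to 152563142 (mm9).

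Id3 gave 17979, 17816, 21606 and 24217, again without overlap. The change was 0.35 ± 0.079 (1.28-fold, adjusted p = 0.0891), with an interval of 0.087 to 0.62. It passed in 2 of the 10 alternatives, normexp background correction and trend with robust variance, with adjusted p from 0.00013 to 0.225. Id2 gave 9737, 9524, 10088 and 11492, and the BMP2 array lay close to the untreated one. Its change was 0.16 ± 0.088 (adjusted p = 0.290), with an interval of -0.14 to 0.46. The larger part came from the pair under LOXL2, 0.27 against 0.051 without it. Id2 passed in 1 of the 10, trend with robust variance, with adjusted p from 0.0468 to 0.495.

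Id4, whose product is the Id family member tied to neural and adipocyte-osteoblast fate decisions, was the 1 Id gene called. It gave 589, 635, 315 and 361, and both BMP2 arrays lay below both others (32.8% of all genes). The change was -0.86 ± 0.063 (adjusted p = 0.0356), which is 1.81-fold lower, with an interval of -1.08 to -0.64. The pair values were -0.91 without LOXL2 and -0.81 under it. In size it exceeded 92.4% of probes. The probe lies on chromosome 13 from 48358668 to 48358727 (mm9).

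**Figure D2:**
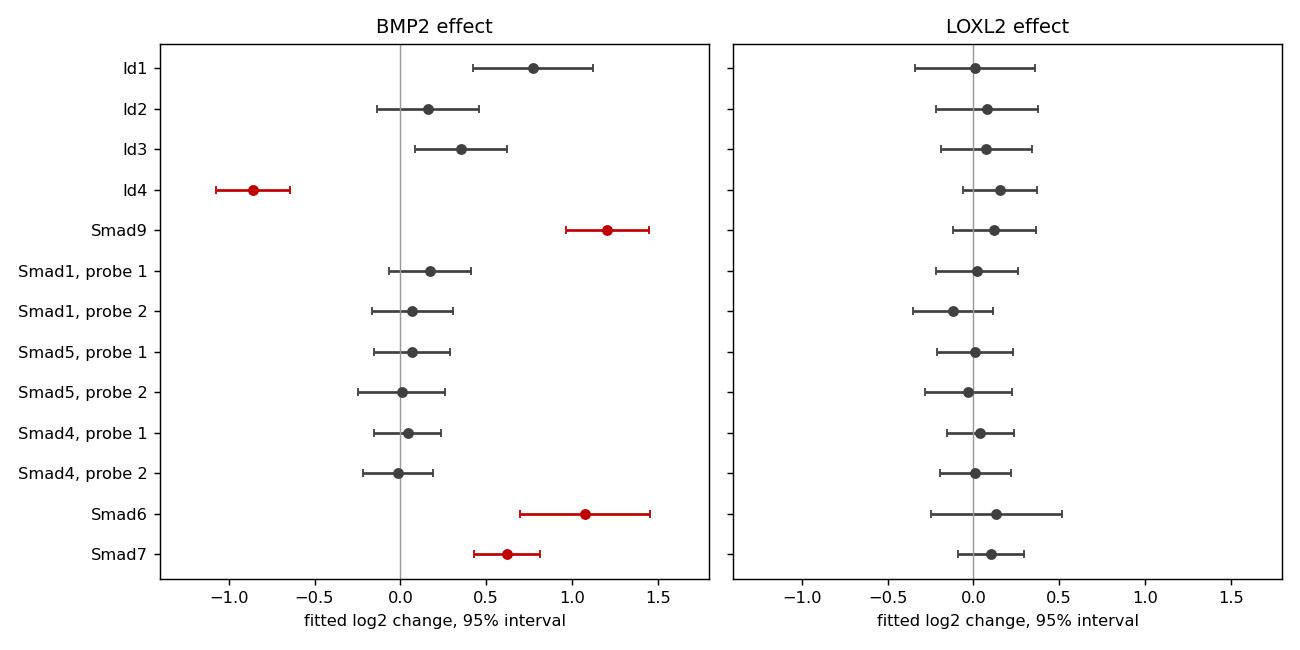
Fitted log2 change with BMP2 (left) and with LOXL2 (right) for each of the 13 probes tested, with 95% intervals from the limma fit; probe 1 is the brightest of a gene, and red marks an adjusted p under 0.05. Smad9, Smad6, Smad7 and Id4 are called for BMP2, with effects from -0.86 to 1.21, and no probe is called for LOXL2, where every interval includes 0.

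For LOXL2, limma called 0 of the 10 genes and 0 of 33976 probes (0% called), with a smallest adjusted p of 0.751 over all probes. At an unadjusted p under 0.05 there were 1955 probes and 0 of the 10 genes. Fitted LOXL2 effects on the 10 ran from 0.0089 for Id1 to 0.15 for Id4, with adjusted p from 0.825 to 0.991. The interval was widest for Smad6, -0.25 to 0.51, so a change of about the size of its pair difference under BMP2 lies within it. The median effect was 0.077 over the 10 genes and -0.0030 over all genes.

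Single pairs of arrays gave the LOXL2 differences at each BMP2 state, with no test possible. Each gene was read on its brightest probe. With BMP2 present, 9 of the 10 genes were higher on the array with LOXL2 (49.2% of all genes). The median difference was 0.16 against -0.0019 over all genes. The second probes of Smad1 (-0.055), Smad4 (-0.025) and Smad5 (0.050) each had the opposite sign to the brightest, so the direction for these genes is unset. Without BMP2, 5 of the 10 were higher (48.1% of all genes), with a median of 0.0061 against -0.0057 over all genes. The scale of spot error was taken from 399 probes printed on 10 spots, and 2 standard deviations of a difference between arrays came to 0.18. It covers spot error and not variation between cultures. Under BMP2, Smad6 (0.29), Id4 (0.20), Smad9 (0.19) and Id2 (0.19) lay past it, and without BMP2 none of the 10 did. Over all genes the shares past it in either direction were 21.6% under BMP2 and 24.8% without. The BMP2 difference was larger under LOXL2 than without it for 8 of the 10 (50.7% of all genes), counting the smaller fall of Id4. On the second probes of Smad4 (-0.070) and Smad5 (0.16) this excess had the opposite sign to the brightest. This excess went past 2 standard deviations of spot error (0.26) for Smad6 (0.32) and Id1 (0.28), a count of 2 of 10 that is near the 22.3% of all genes. It is the residual of the additive fit, and so widens the errors of Smad6 and Id1.

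**Figure D3:**
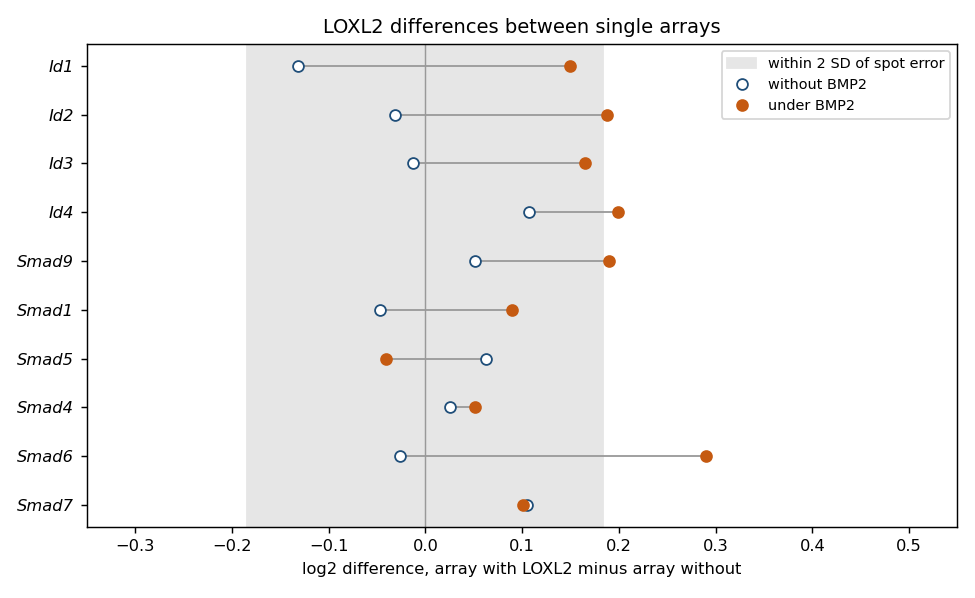
Log2 difference between the array with LOXL2 and the array without it, for the brightest probe of each gene, without BMP2 (open circles) and under BMP2 (filled circles); the grey band is 2 standard deviations of spot error, 0.18 on either side of 0. Under BMP2 the filled circles of Smad6, Id4, Smad9 and Id2 lie outside the band, and no open circle does; over all genes 21.6% under BMP2 and 24.8% without lay outside it.

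Cell type markers were read on the same arrays. Of the 9 osteoblast markers, 4 rose with BMP2 and 0 fell, with a median of 0.77. Those that rose were Bglap (3.60), Ibsp (2.53), Sp7 (2.23) and Alpl (1.87), which mark matrix maturation or its control. On their brightest probes, Runx2 (0.076), Spp1 (0.77), Col1a1 (-0.064), Col1a2 (-0.12) and Sparc (-0.099) did not pass. Runx2 had 3 probes tested, and the brightest gave the smallest change. Their median was 0.57 and the largest 0.73, so its response depends on the probe. All 8 chondrocyte genes rose, though Matn1 was not well above background on either array without BMP2 and Col10a1 was above it on 3 of 4. Their summed intensity ran from 40298 untreated and 46863 with LOXL2 to 180502 with BMP2 and 274348 with both proteins. Most of this sum was Col2a1, with 27535 untreated and 181437 with both proteins. The 6 chondrocyte genes above background on all 4 arrays all rose with BMP2. All 6 were also higher with LOXL2, by a median of 0.62 under BMP2 and 0.20 without it, in pairs of arrays that have no test. Of 10 genes of macrophages and other leukocytes, 1 passed, falling, with a summed intensity from 9600 untreated to 7255 with both proteins. Most of that sum was Csf1r, with 6654 untreated and 5464 with both proteins. Of 4 endothelial genes 1 fell, and of 5 adipocyte and 3 skeletal muscle genes 0 passed. Emcn (endothelial) and Ckm (muscle) were not above background on enough arrays to be tested. The part of these cell types in the changes of the Id and SMAD genes was not tested.

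Among 34 regulators, co-factors and BMP receptors tested, 2 rose and 2 fell, with a median of 0.080, against 6.14% and 6.58% of all genes. The co-repressor gene Skil, which binds SMAD complexes, rose by 0.73 ± 0.057 (adjusted p = 0.0364), and the homeodomain co-repressor Tgif1 rose by 0.77 ± 0.061 (adjusted p = 0.0367). The SMAD-binding zinc-finger gene Zeb1 fell by 0.72 ± 0.060. The type I receptor Bmpr1b fell by 0.68 ± 0.062 on its brightest probe, but its other probe gave 0.062. The ubiquitin ligases Smurf1 and Smurf2, which target SMADs for degradation, gave -0.16 (adjusted p = 0.170) and 0.14 (adjusted p = 0.317). The receptors Bmpr1a, Bmpr2 and Acvr1 gave -0.066, 0.013 and 0.10, none of which passed. Bambi, a decoy receptor, was not tested because it was not above background on enough arrays.

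None of the E protein genes, whose products are dimer partners of Id proteins, passed for BMP2. They are Tcf3, Tcf4 and Tcf12, and their changes were -0.19, -0.16 and 0.32 on the brightest probes, with adjusted p from 0.0781 to 0.425. The other probe of Tcf12 gave -0.049, so its direction depends on the probe. Those of Tcf3 (-0.029) and Tcf4 (-0.086) kept the sign of the brightest. Among 14 genes tested in the list of Id partners and related factors, 5 rose and 1 fell, against 6.14% and 6.58% of all genes. Of the 13 above background on all 4 arrays, 4 rose and 1 fell, with a median of 0.0025. The Notch- and BMP-responsive repressor Hey1 rose by 3.80 ± 0.11, Hes1 by 1.10 ± 0.090 and the clock repressor Bhlhe40 by 1.10 ± 0.063. The Ets factor gene Ets1 rose by 0.66 ± 0.057. Twist1, a factor that restrains osteoblast maturation and pairs with E proteins, fell by 0.50 ± 0.058 (adjusted p = 0.0465). Heyl, a relative of Hey1, gave 12.8, 12.2, 33.6 and 46.4 and was not well above background on either array without BMP2, so that it passed the filter only through the arrays where it was high. It was at least 2.92-fold higher with BMP2, set against the lowest signal above background on the dim arrays.

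Among 25 other BMP-SMAD target genes tested, 10 rose and 2 fell, against 6.14% and 6.58% of all genes. The median was 0.26, close to that of the Id and SMAD genes. Another 4 listed genes were not above background on enough arrays to be tested. The largest changes were those of Hey1, of the BMP antagonist Grem1 (2.71 ± 0.12), of the osteoblast transcription factor Sp7 (2.23 ± 0.057) and of the netrin receptor Unc5b (1.88 ± 0.067). Each was larger than any change among the 10 genes.

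The genes whose profile over the 4 arrays was closest to the pair with the widest range were found by Euclidean distance between centred log2 values, over 16203 candidates. For Smad9, which spanned 1.33, the nearest were the glutathione transferase gene Gsta2 (distance 0.030), the tetraspanin gene Tspan4 (0.040) and Efcab1 (0.047). For Smad6, which spanned 1.23, near profiles included those of the homeobox gene Dlx2 (0.041) and the parathyroid hormone receptor gene Pth1r (0.069). Pth1r gave 9357, 9096, 18623 and 21772, and Dlx2 gave 931, 898, 1767 and 2083. The likeness rests on 4 arrays and is a description only.

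How far the calls depend on the processing was read from the adjusted p of each gene under the processing alternatives. All alternatives reuse the same 4 arrays, and several leave the fitted change as it was. They thus do not cover variation between cultures or arrays. Smad9, Smad6, Smad7 and Id4 passed in 9 of 10, and failed where no filter on dim probes was used, with adjusted p from 0.125 to 0.137. The adjusted p depends on how many other probes changed, and with no filter limma called 0 of all probes for BMP2 (11949 at an unadjusted p under 0.05). The fitted changes of these 4 ran from 1.01 to 1.26 for Smad9, 1.03 to 1.13 for Smad6, 0.58 to 0.67 for Smad7 and -0.86 to -0.77 for Id4. Smad1, Smad4 and Smad5 passed in 0 of 10.

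**Figure D4:**
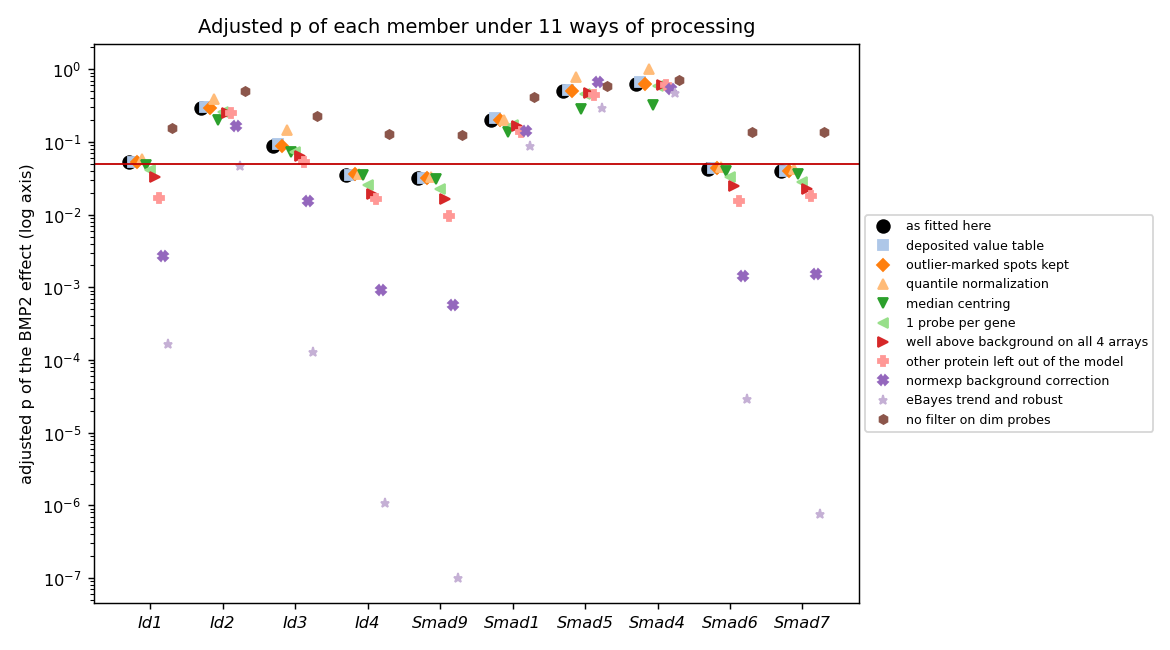
Adjusted p of the BMP2 effect (log axis) for the 10 genes under 11 ways of processing, each a symbol; the red line marks 0.05 and the large black circle the fit described here. Smad9, Smad6, Smad7 and Id4 lie below the line in all but the setting with no filter on dim probes, Id1, Id3 and Id2 lie on both sides of it (6, 2 and 1 of 10 alternatives below), and Smad1, Smad4 and Smad5 lie above it throughout.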

How the data were processed

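The deposited scanner files hold 1 intensity per spot and array, which the authors made with Agilent Feature Extraction (version 10.7.3.1, as the submitters' processing notes give it), with background subtraction, detrending and surrogate values for dim spots per the file headers. The deposited value table, also linear intensity, equalled the mean spot signal within 0.1% for 99.5% of probes and served as an alternative.

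Here, processed signals were put on the log2 scale, less the 75th percentile of each array. Marked outlier spots were left out (109 to 144 per array), and spots of a probe were averaged. Probes well above background on at least 2 of 4 arrays were kept, and 17 probes without a value on every array were left out. Names came from RefSeq (GRCm38.p6) for 26762 probes and from the file otherwise. The brightest probe stood for a gene. The additive model was fitted with limma 3.58.1 in R 4.3.3, two-sided, with Benjamini-Hochberg adjustment over all probes, and checked on simulated data. The p-values set each effect against the departure of these 4 arrays from the additive fit, moderated over all probes. That departure may be technical or an interaction of the proteins, which cannot be told apart here. No p-value covers variation between replicate cultures, and the number of arrays limits precision.

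All members were described. Listed genes were named freely for SMAD regulators and Id partners and otherwise up to 4 per list, those called with the largest BMP2 effect. One gene with a profile near that of a member is not reported here. Members and lists were chosen with earlier results of these data known.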

Additional observations from a re-analysis of the deposited data

Results flagged for a closer look

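For 6 of the 10 genes, each read on its brightest probe, the LOXL2 difference had opposite signs without and under BMP2. Each difference came from 1 pair of arrays, and the contrast between the pairs was not tested. The share of all genes with opposite signs was not computed, so the count cannot be read as a trait of these genes. The values without and under BMP2 were -0.13 and 0.15 for Id1, -0.032 and 0.19 for Id2, -0.013 and 0.16 for Id3, -0.047 and 0.089 for Smad1, 0.062 and -0.041 for Smad5, and -0.026 and 0.29 for Smad6. Only the Id2 and Smad6 values under BMP2 lay past 2 standard deviations of spot error (0.18). On these probes, Smad5 was the 1 gene of the 6 that was lower with LOXL2 under BMP2. Second probes differed from this. That of Smad1 gave -0.18 without and -0.055 under BMP2, with the same sign. That of Smad5 gave -0.11 and 0.050, the reverse of its brightest probe. For Smad4, not among the 6, the second probe had opposite signs (0.045 and -0.025).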

How the results depend on the processing

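Against 4060 probes called for BMP2, limma called 11584 with normexp correction, 6943 among probes above background on all 4 arrays, 13738 with trend and robust variance, 8332 without LOXL2 in the model and 0 with no filter (11949 at an unadjusted p under 0.05). Of the 10 genes, 4 were called; this became 7 with trend and robust variance, which added Id1, Id2 and Id3, 6 with normexp, which added Id1 and Id3, 5 with Id1 in 4 other settings, and 0 with no filter. For LOXL2 the 0 probes called became 71 with trend and robust variance, none among the 10 genes. Signs turned, at sizes near 0, for the BMP2 effect on Smad4 (-0.00034) and the LOXL2 effect on Id1 (-0.00080) with quantile normalization, and for the LOXL2 effect on Smad5 (-0.0011) with normexp. Leaving out 1 array leaves no test and only returns the difference of a single pair of arrays, so it is no separate check. Read this way, the LOXL2 effect ran from -0.13 to 0.15 on Id1, -0.032 to 0.19 on Id2, -0.013 to 0.16 on Id3, -0.047 to 0.089 on Smad1, -0.041 to 0.062 on Smad5, -0.026 to 0.29 on Smad6 and 0.051 to 0.19 on Smad9. The BMP2 effect ran from 0.051 to 0.27 on Id2, 0.27 to 0.44 on Id3 and 0.10 to 0.24 on Smad1. It ran from 0.031 to 0.056 on Smad4 and 0.017 to 0.12 on Smad5. On each remaining gene, the larger value was less than 1.5 times the smaller in size. The median over a gene's probes gave 0.069 for Id partners and -0.13 for TGF-beta targets, against 0.16 and -0.22. The cause of these shifts was not tested. With quantile normalization, median centring and normexp in turn, 9 of the 10 genes were higher with LOXL2 under BMP2 on their brightest probes. No paired analysis was possible because each treatment has 1 array.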

Other observations

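The SMAD genes of the TGF-beta branch, outside the 10 genes, did not pass for BMP2. Smad2 gave 0.066 ± 0.066 (adjusted p = 0.523) and Smad3 gave 0.25 ± 0.070 (adjusted p = 0.123) on its brightest probe. Of 16 TGF-beta-SMAD target genes tested, 3 rose and 5 fell, with a median of -0.22 against 0.017 over all genes. Over all genes, 6.14% rose and 6.58% fell. The matrix protein gene Tgfbi rose by 2.02 ± 0.060 and Bhlhe40 by 1.10 ± 0.063. The adhesive glycoprotein gene Thbs1 fell by 1.70 ± 0.061 and the smooth muscle calponin gene Cnn1 by 1.20 ± 0.058.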
